A study of Mus musculus with 19 samples.

Results

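Neutrophils carry their antimicrobial proteins in granules, and 10 mouse genes for those proteins were followed here. They were picked by name, as gene symbols, from 18495 genes measured in 2 sets of RNA-seq libraries of mouse models of fibrolamellar carcinoma, the liver tumour in which a DNAJB1-PRKACA fusion kinase is found. There are 4 early genes, of the azurophil granules (Mpo, Elane, Prtn3 and Ctsg), and 6 late genes (Camp, Ltf, Ngp, Lcn2, S100a8 and S100a9). All 10 were in the table of embryonic livers, which lists 13549 genes, and 8 were among the 17606 gene IDs of the tumour files. Mpo and Ctsg had no entry among the tumour IDs.

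The embryonic libraries came from livers at embryonic day 18.5. The 4 fusion livers, numbered 6 to 9, carry the genotype label DNAJ1B-PKA_Overexpression, and the 5 control livers, numbered 1 to 5, are labelled only as controls, so that the alleles they carry are not stated for each animal. The series describes a DNAJB1-PRKACA-GFP cDNA placed in the Rosa26 locus behind a stop cassette that an Alb-Cre transgene removes, and Alb-Cre acts in hepatocytes and their precursors. The 10 tumours grew from FL8, a mouse line, which was enclosed in gelatin and implanted under the flank skin of NSG hosts, and all of them therefore stem from 1 line. NSG mice lack T, B and NK cells and keep neutrophils and monocytes. When the mean tumour size was 75 mm3, the mice were given palbociclib, which inhibits CDK4 and CDK6, the kinases of cell cycle entry, at 75 mg/kg by mouth on 3 days followed by 4 days without treatment (5 tumours, palbociclib 1 to 5), or the methocel carrier on the same schedule (5 tumours, vehicle 1 to 5). Whether samples of 1 group came from separate litters or cages is not stated, and p-values measure the spread between these samples only.

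A neutrophil fills its granules in sequence while it matures. The azurophil proteins are made at the promyelocyte stage, when PU.1 and C/EBP factors drive transcription. The proteins of the specific and gelatinase granules follow at the myelocyte and metamyelocyte stages under C/EBPε. The S100a8 and S100a9 proteins form the cytosolic calprotectin complex of the late stages. Fetal liver is a site of blood formation before birth, so that maturing granulocytes are found in it among the hepatocytes. In whole tissue, fewer cells of a type and less RNA per cell cannot be told apart.

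The genes lie in 3 neighbourhoods and at 3 single loci, by GENCODE M21 on the GRCm38 build. Prtn3 (chromosome 10, 79874476 to 79883174) and Elane (chromosome 10, 79886247 to 79888215) lie on the plus strand 3.07 kb apart. S100a8 (chromosome 3, 90668978 to 90670035, plus strand) and S100a9 (chromosome 3, 90692632 to 90695721, minus strand) are 22.6 kb apart. Camp (109847379 to 109849617), Ngp (110419747 to 110423012) and Ltf (111019271 to 111042767) share chromosome 9. Mpo is on chromosome 11 (87793581 to 87804413), Ctsg on chromosome 14 (56099881 to 56102574) and Lcn2 on chromosome 2 (32384633 to 32388252). Mpo shares 512 exon bases with Gm11505 on the opposite strand, and Prtn3 shares 159 exon bases with Plppr3. Whether reads were counted by strand is not stated for either experiment, so the levels of these 2 genes could hold reads of their neighbours.

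Exact matches to short motifs of the myeloid factors were counted just upstream of the early and late genes. The motifs were chosen with these sequences in view, so the counts are no test of a difference, and near matches were not counted. RefSeq promoters on GRCm38.p6, 250 bases before to 50 bases after the start, were available for all 10 genes, and both strands were searched. AGGAAGT, a form of the ETS site as PU.1 binds it, was present in 4 of 4 early promoters and 1 of 6 late ones, against 9.35% of 32851 mouse promoters. The windows follow with the match in capitals, each read 5′ to 3′ on the strand given, to show the element that the 4 early genes share.
Mpo, chr11:87793551-87793577, plus strand: ggagagagagAGGAAGTtgcctttgtc
Elane, chr10:79886218-79886244, plus strand: tgtcccagggAGGAAGTagggctgtgg
Prtn3, chr10:79879563-79879589, plus strand: aactggaaggAGGAAGTgggacccaca
Ctsg, chr14:56102764-56102790, minus strand: gaggaagaaaAGGAAGTagtcacctgt
S100a8, chr3:90668889-90668915, minus strand: tctgagtctgAGGAAGTgggagtgttg

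TTNNGNAA, a form of the C/EBP site, was found in 5 of 6 late promoters and in 0 of 4 early ones, against 40.7% of all promoters. Camp was the late gene with neither motif in this window. One window from each late gene with a match is given, again with the match in capitals.
Ltf, chr9:111019207-111019234, plus strand: ggcaggcctaTTGGGCAAtagggtgggg
Ngp, chr9:110419660-110419687, minus strand: gcaaggaggtTTGGGCAAtaaaccagga
Lcn2, chr2:32387938-32387965, plus strand: ctgtgcaaggTTGAGCAAcaggaagggc
S100a8, chr3:90668944-90668971, plus strand: atggacttggTTAGGAAAcagaggctgt
S100a9, chr3:90695834-90695861, plus strand: ctctgatgttTTGTGAAAttcccagccc

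The 250 bases before the start of 4 genes show where these matches sit. Elane and Prtn3 are the neighbouring early pair, Lcn2 had the lowest p of the 10 genes in the livers and S100a9 the highest level. Each is printed on the strand of its gene, with a match in capitals on whichever strand it was found.
Elane, chr10:79886062-79886311, plus strand: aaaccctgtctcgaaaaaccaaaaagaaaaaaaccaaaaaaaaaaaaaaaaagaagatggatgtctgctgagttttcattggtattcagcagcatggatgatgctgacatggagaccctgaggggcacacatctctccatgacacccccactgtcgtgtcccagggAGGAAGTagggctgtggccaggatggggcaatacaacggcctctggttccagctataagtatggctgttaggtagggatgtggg
Prtn3, chr10:79879417-79879666, plus strand: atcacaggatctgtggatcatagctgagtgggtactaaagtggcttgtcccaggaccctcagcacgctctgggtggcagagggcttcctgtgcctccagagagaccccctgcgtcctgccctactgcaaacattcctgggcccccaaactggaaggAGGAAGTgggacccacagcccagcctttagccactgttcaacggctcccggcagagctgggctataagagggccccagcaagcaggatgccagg
Lcn2, chr2:32387740-32387989, minus strand: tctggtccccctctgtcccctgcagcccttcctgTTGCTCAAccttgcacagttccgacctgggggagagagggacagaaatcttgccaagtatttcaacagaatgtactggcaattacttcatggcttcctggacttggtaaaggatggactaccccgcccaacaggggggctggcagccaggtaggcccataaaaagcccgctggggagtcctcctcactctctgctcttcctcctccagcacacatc
S100a9, chr3:90695722-90695971, minus strand: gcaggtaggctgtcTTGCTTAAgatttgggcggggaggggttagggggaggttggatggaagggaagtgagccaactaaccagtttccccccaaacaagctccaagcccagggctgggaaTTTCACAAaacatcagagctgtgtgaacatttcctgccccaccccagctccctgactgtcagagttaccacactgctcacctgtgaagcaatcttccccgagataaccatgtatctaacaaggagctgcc
In Elane the ETS match begins 84 bases before the start and in Prtn3 94 bases before it. The start is that of RefSeq, which lies 5191 bases inside the Prtn3 gene as GENCODE draws it, 513 bases inside Lcn2, 203 bases inside Mpo and 0 to 161 bases inside the other 7. The motifs were settled after these sequences had been seen, and a match describes the letters only.

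All 10 genes were well measured in the embryonic livers and few were in the tumours. Together they took 0.634% to 0.814% of the counts in control livers and 0.516% to 0.705% in fusion livers, and 0.0358% to 0.0959% in the tumours. Per kilobase of exon, S100a9 was the highest in control livers at 5029 ± 658 CPM per kb (counts scaled to a library total of 1000000, over exon length, SD, n = 5), and its libraries did not overlap those of the next gene. Camp at 1487 ± 483, S100a8 at 1022 ± 201 and Ngp at 764 ± 56.7 CPM per kb followed, with neighbours overlapping. Ltf, Lcn2, Prtn3, Elane and Mpo formed a chain of overlapping neighbours from 225 ± 37.8 down to 111 ± 34.0 CPM per kb. Ctsg was the lowest, at 20.0 ± 7.11 CPM per kb, below every library of Mpo. The fusion livers had the same first and last genes, with S100a9 at 4185 ± 866 and Ctsg at 26.1 ± 4.27 CPM per kb (SD, n = 4).

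In the tumours the order was another one. Lcn2, lipocalin 2, which binds bacterial siderophores and is also made by hepatocytes, led at 206 ± 99.6 CPM per kb in vehicle and 252 ± 43.9 CPM per kb in palbociclib tumours (SD, n = 5 each). S100a9 and S100a8 came next, at 70.4 ± 60.8 and 60.9 ± 39.2 CPM per kb in vehicle tumours, and Prtn3 after them at 3.77 ± 2.23. The remaining Ngp, Camp, Elane and Ltf had libraries listed at 0 in both groups. The embryo and tumour tables were made separately, from poly-A and total RNA, so their levels stand side by side without a test.

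**Figure D1:**
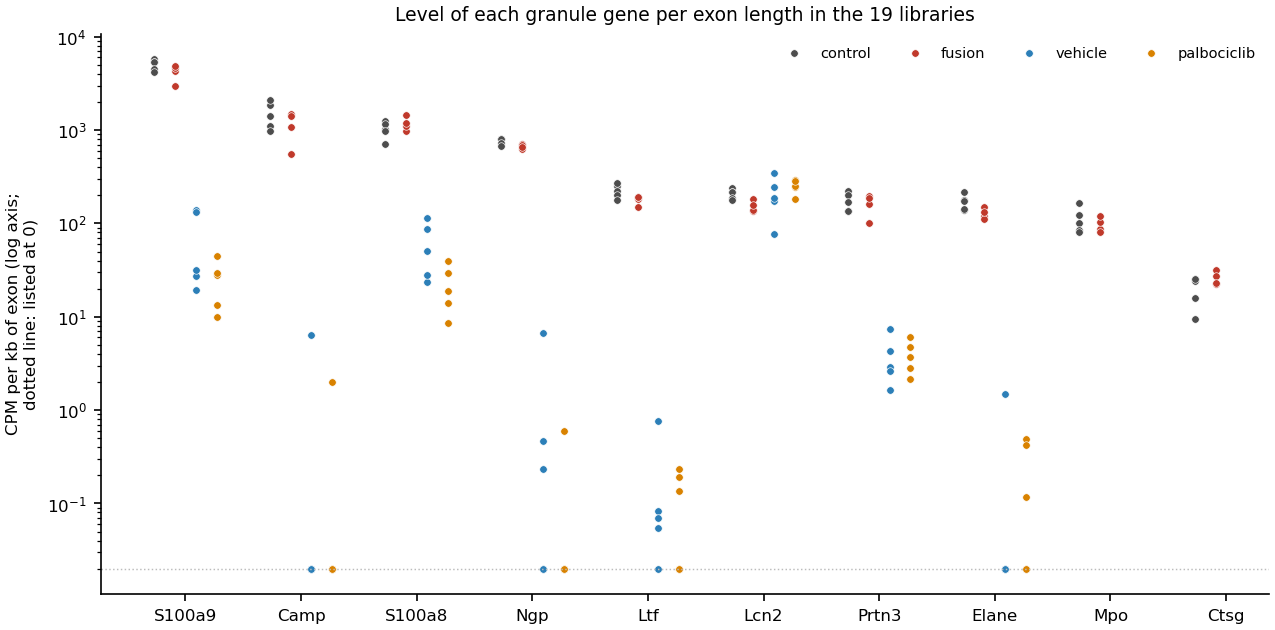
Level of each granule gene in CPM per kb of exon (log axis), 1 point per library, for 5 control and 4 fusion livers and 5 vehicle and 5 palbociclib tumours; points on the dotted line are listed at 0, and Mpo and Ctsg have liver values only. Lcn2 is the one gene whose tumour points overlap its liver points, at 76.7 to 348 CPM per kb in vehicle tumours.

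The libraries differ in ways that touch these genes. Depth ran from 7.66 to 45.6 M counts in livers and from 2.96 M (vehicle 5) to 43.1 M in tumours (M, 1000000). By counting error alone, with each count independent, a count of 0 allows up to 3 counts. That is 0.0658 to 0.392 CPM in livers and 0.0695 to 1.01 CPM in tumours. In tumours counts of 1 to 10 were even in 59.8% to 78.1% of cases, so that the limit there may be too small. The livers fall into 2 sets by the share of counts from ribosomal protein genes: controls 1 and 2 and fusion 8 and 9 had 7.81% to 8.46%, here the high set, and controls 3, 4 and 5 and fusion 6 and 7 had 5.42% to 6.77%, here the low set. No label gives these sets. By Xist, controls 1 and 2 and fusion 6, 7 and 8 were female, and in the low set sex and genotype cannot be told apart. Vehicle 1 had 46.6% mitochondrial counts, against 1.24% to 6.47% in the other 9 tumours. The livers carried their tissue's markers (8 hepatocyte genes summing to 163852 to 202092 CPM), and the FL8 tumours 34413 (vehicle 1) to 106842 CPM.

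Whether the fusion kinase in liver altered the granule genes was asked first. In fusion livers 8 of the 10 granule genes had a lower fitted level and Ctsg and S100a8 a higher one, and none of the 10 passed the threshold (edgeR adjusted p under 0.05). Over all genes 12.8% passed (1704 of 13316). The median log2 fold change of the 10 was -0.22, -0.14 for the early and -0.29 for the late genes, against -0.01 for all genes. At an unadjusted edgeR p under 0.05 there were 2, Elane and Lcn2, both lower, where 15.4% of all genes were lower and 29.3% in either direction. DESeq2 passed 1, Lcn2, where it passed 18.3% of all genes. All 10 genes had overlapping libraries between genotypes, where 16.5% of all genes had groups without overlap.

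Mpo encodes myeloperoxidase, which makes hypochlorous acid in the azurophil granule. It measured 417, 562, 345, 288 and 280.2 CPM (TMM-scaled) in controls 1 to 5, and 299, 274, 352 and 409 CPM in fusion 6 to 9. Controls 1 and 2 and fusion 9 were the highest, all from the high set, and the fitted change was -0.18 ± 0.22 (log2, SE, edgeR adjusted p = 0.623). Without control 2 it was 0.02, the other end of a range from -0.29 when each library was left out in turn.

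Elane, neutrophil elastase, was at 215, 176, 172, 137 and 139.6 CPM in controls 1 to 5. The fusion livers had 119.5, 148, 109 and 129 CPM. Fusion 7 alone reached into the control range, and the log2 fold change of -0.41 ± 0.16 had an edgeR adjusted p of 0.112 (unadjusted p = 0.0246). Prtn3, proteinase 3, its neighbour on chromosome 10, was at 383, 350.0, 294, 238 and 236 CPM in controls. In fusion livers it was at 175, 278, 342 and 324 CPM, with a log2 fold change of -0.10 ± 0.22 (edgeR adjusted p = 0.793). The 2 neighbours did not keep a fixed proportion: Elane counts were 0.502 to 0.591 of the Prtn3 counts in controls, and between 0.320 (fusion 8) and 0.683 (fusion 6) in fusion livers.

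Ctsg, cathepsin G, was the lowest early gene. Controls 1 to 5 measured 9.81, 16.3, 26.0, 25.2 and 26.1 CPM, and fusion 6 to 9 measured 32.5, 23.4, 28.6 and 23.5 CPM. Controls 1 and 2, the female controls of the high set, stood below the other 7 livers. The log2 fold change was 0.38 ± 0.26 (edgeR adjusted p = 0.356). In control 1 the highest Elane level of all livers met the lowest Ctsg level, a count ratio of Ctsg to Elane of 0.0456, where the other 8 livers had 0.0928 to 0.272.

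Among the late genes, Camp encodes cathelicidin, the precursor of an antimicrobial peptide. It was at 1407, 1590.5, 1070.0, 829.3 and 739 CPM in controls 1 to 5. Fusion 6 was the lowest at 416 CPM, and fusion 7 to 9 had 810.4, 1138 and 1072 CPM. The genotypes overlapped widely, with a log2 fold change of -0.39 ± 0.31 (edgeR adjusted p = 0.436).

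Ltf, lactoferrin, which binds iron in the specific granule, measured 872, 933, 764, 700.4 and 608 CPM in controls 1 to 5. Fusion livers had 517, 636, 658 and 666 CPM, of which 3 lay above control 5. The log2 fold change was -0.32 ± 0.16 (edgeR adjusted p = 0.203). Ngp, the neutrophilic granule protein, a cathelicidin relative, was the steadiest: 973, 986, 987, 888 and 834 CPM in controls and 764, 869, 849.7 and 806 CPM in fusion livers. Its log2 fold change was -0.18 ± 0.13 (edgeR adjusted p = 0.361).

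Lcn2 had the lowest p of the 10 genes. It was at 629, 566, 569, 489 and 463 CPM in controls 1 to 5 and 361, 473, 365 and 408 CPM in fusion 6 to 9. Fusion 7 exceeded control 5, and the other 3 fusion livers lay under all controls. The log2 fold change of -0.44 ± 0.14 had an edgeR adjusted p of 0.0699, above the threshold, and a DESeq2 adjusted p of 0.0158, below it. The count ratio of Lcn2 to Ngp, looked at after the values were seen and not tested, was 0.551 to 0.647 in controls and 0.430 to 0.545 in fusion livers. Lcn2 is also an acute phase gene of hepatocytes, and 9 measured acute phase genes summed to 12143 to 17812 CPM in controls and 10192 to 13861 CPM in fusion livers, with 2 of the 9 lower and 0 higher at the threshold (edgeR, where 6.81% of all genes were lower). The part of hepatocyte transcripts in the Lcn2 level was not tested.

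The fitted values of the calprotectin pair had opposite signs, neither past the threshold, and their difference was not tested. S100a9 was at 2998, 2804, 2789, 2360.1 and 2174 CPM in controls and 1536, 2236, 2406 and 2560.2 CPM in fusion livers, a log2 fold change of -0.26 ± 0.18 (edgeR adjusted p = 0.369). S100a8 was at 497, 706, 861, 802 and 679.7 CPM in controls and 679.6, 766, 1012 and 823 CPM in fusion livers, a log2 fold change of 0.21 ± 0.18 (edgeR adjusted p = 0.484). Control 1 held the highest S100a9 and the lowest S100a8, a count ratio of 6.03, and fusion 6 had a ratio of 2.26. Low Ctsg and low S100a8 thus met in control 1.

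**Figure D2:**
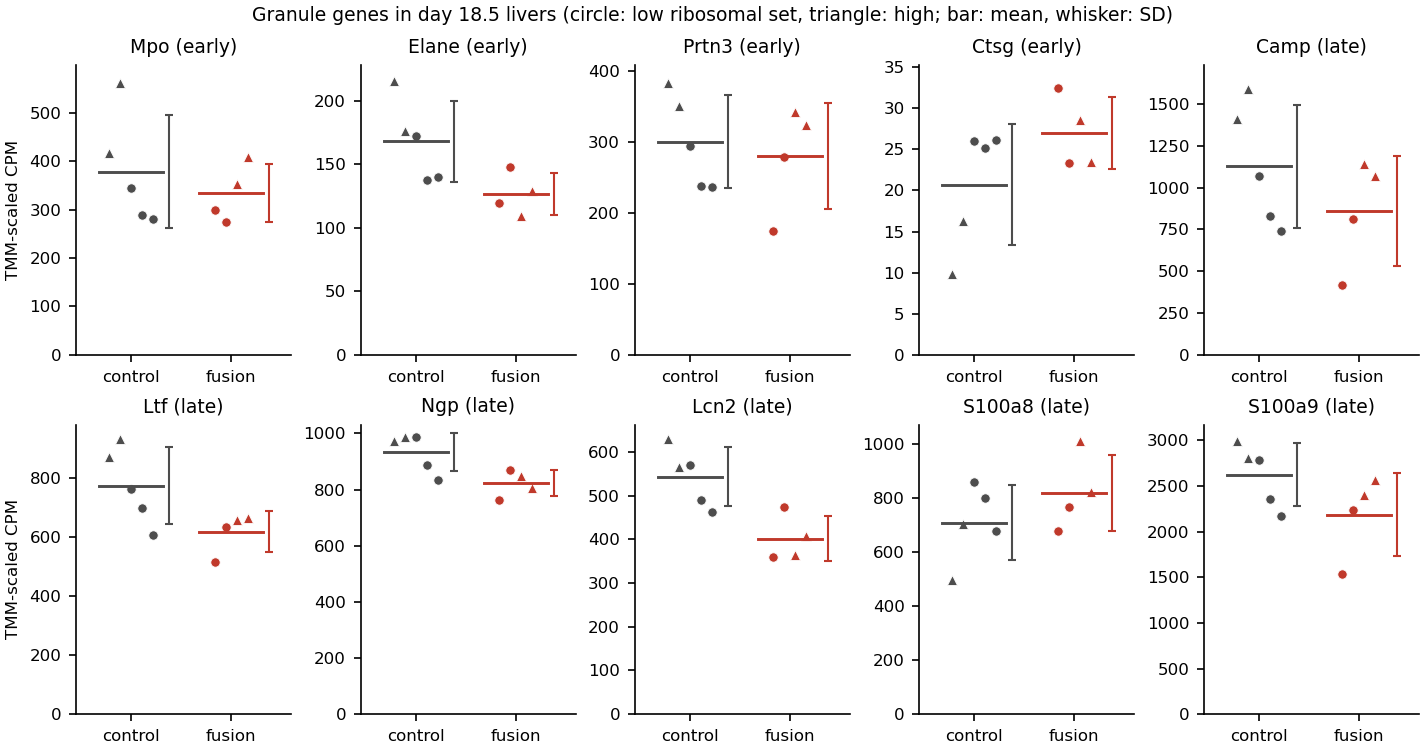
TMM-scaled CPM of the 10 granule genes in control (grey, n = 5) and fusion (red, n = 4) livers, 1 panel per gene with the axis from 0, with triangles for the high set, circles for the low set, horizontal bars for means and whiskers for 1 SD. Every panel shows overlapping genotypes, and in Mpo, Prtn3 and Camp the triangles lie above the circles.

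Several granule genes differed between the 2 library sets. In a fit with set and genotype, Camp (0.81 ± 0.17, adjusted p = 0.00259), Mpo (0.56 ± 0.12, adjusted p = 0.00288), Prtn3 (0.53 ± 0.13, adjusted p = 0.00631) and Ltf (0.30 ± 0.11, adjusted p = 0.0439) were higher in the high set on the log2 scale by edgeR. Ctsg was lower there by edgeR (-0.57 ± 0.19, adjusted p = 0.0319). That is 5 of 10 genes, where 36.8% of all genes passed. The sets were drawn from these same counts. The p-values here, and in later fits that use the sets, therefore hold only given that split. Among the controls, the high set was female and the low set male by Xist. Mpo was at 352 to 562 CPM in the high set and 274 to 345 CPM in the low set, with no overlap. Prtn3 also had no overlap, with 324 to 383 CPM in the high and 175 to 294 CPM in the low set. The 4 pan-leukocyte markers summed to 318 to 584 CPM in the low set and 521 to 912 CPM in the high set, 3 of the 4 higher by edgeR. Erythroid markers summed to 3231 to 4327 CPM in the low and 4518 to 5728 CPM in the high set, with 4 of 7 higher and 1 lower by edgeR. Of 13 monocyte, macrophage and Kupffer cell markers 5 were higher and 4 lower in the high set by edgeR. Of 45 further granulocyte genes, described below, 9 were higher and 10 lower. The part of blood cell content in the difference was not tested.

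With the set as a covariate, 4 of the 10 granule genes were lower in fusion livers by edgeR, against 16.5% of all genes lower and 32.6% passing in that fit. These were Lcn2 (-0.44 ± 0.12, adjusted p = 0.0146), Ltf (-0.34 ± 0.11, adjusted p = 0.0282), Elane (-0.41 ± 0.14, adjusted p = 0.0334) and Camp (-0.48 ± 0.17, adjusted p = 0.0452). Ctsg was at 0.50 ± 0.19 (edgeR adjusted p = 0.0543). The covariate left the fold changes close to those without it and reduced their errors, for Camp from 0.31 to 0.17. With sex as the covariate none of the 10 passed by edgeR, where 9.64% of all genes did, and 4 of the 10 had an unadjusted p under 0.05, where 27.8% of all genes did.

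Within the high set, of 2 control and 2 fusion livers, 4 genes passed by edgeR where 20.0% of all genes did. Elane was at 215 and 176 CPM in controls and 109 and 129 CPM in fusion livers (-0.70 ± 0.16, adjusted p = 0.0140). Lcn2 was at 629 and 566 CPM against 365 and 408 CPM (-0.62 ± 0.15, edgeR adjusted p = 0.0178). Ctsg was at 9.81 and 16.3 CPM against 28.6 and 23.5 CPM (1.05 ± 0.23, edgeR adjusted p = 0.0135), and S100a8 at 497 and 706 CPM against 1012 and 823 CPM (0.62 ± 0.19, edgeR adjusted p = 0.0447). Each of these rests on 2 libraries a group. Within the low set, of 3 control and 2 fusion livers, none of the 10 passed by edgeR, where 21.8% of all genes did, and none had an unadjusted p under 0.05, where 36.7% did. S100a8 had the opposite sign there (-0.11 ± 0.14). The difference of the genotype effect between sets was itself tested, and none of the 10 passed (edgeR, 0.188% of all genes passed). Its largest values were 0.92 ± 0.28 for Ctsg (adjusted p = 0.148), 0.72 ± 0.25 for S100a8 (adjusted p = 0.187) and -0.55 ± 0.22 for Elane (adjusted p = 0.234), all by edgeR. These 3 had an unadjusted p under 0.05, where 16.9% of all genes did.

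**Figure D3:**
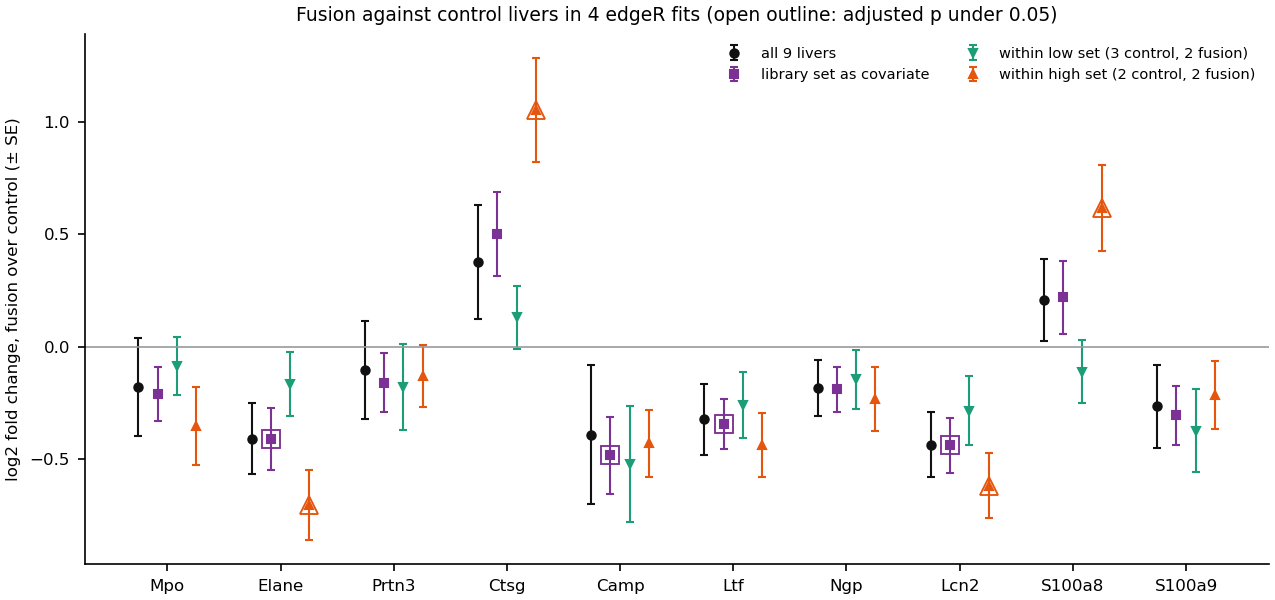
Log2 fold change of fusion over control livers with its SE for each granule gene in 4 edgeR fits: all 9 livers, all 9 with the library set as a covariate, and each set alone; an open outline marks an adjusted p under 0.05. The fits over 9 livers nearly coincide, while Ctsg runs from 0.13 within the low set to 1.05 within the high set.

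Beyond the 10 genes, 45 further granulocyte genes were listed, of granule proteins, oxidase subunits, receptors and transcription factors, and 3 of the 45 were lower and 0 higher in fusion livers by edgeR. Over all genes 6.81% were lower and 5.99% higher, so that the count of lower genes is near the background. Their median log2 fold change was -0.18, with 34 of 45 below 0, against 6891 of 13316 for all genes. Hp, haptoglobin, which binds free hemoglobin, ranged from 1850.5 to 2830.4 CPM in controls (median 2284) and from 399.9 to 1308 CPM in fusion livers (-1.33 ± 0.29, edgeR adjusted p = 0.0140), without overlap. Cebpa, the C/EBPα factor, had 161 to 243 CPM in controls and 100.3 to 154 CPM in fusion livers (-0.65 ± 0.17, edgeR adjusted p = 0.0303). Hepatocytes make both transcripts as well. Mmp9, the gelatinase of the gelatinase granules, had 40.5 to 53.4 CPM in controls and 31.0 to 36.0 CPM in fusion livers (-0.44 ± 0.11, edgeR adjusted p = 0.0264).

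Hp passed when any 1 of the 9 livers was left out. Mmp9 passed in 4 of the 9 such fits (those without control 1, control 4, control 5 or fusion 9), with adjusted p from 0.0377 to 0.0771. Cebpa also passed in 4 (without control 1, control 2, fusion 7 or fusion 9), from 0.0288 to 0.0885. With the library set as a covariate 18 of the 45 passed, 14 lower and 4 higher, where 32.6% of all genes passed, 16.5% lower and 16.1% higher. The lower ones included Pglyrp1 (-0.67 ± 0.15, edgeR adjusted p = 0.00422), a peptidoglycan-binding protein of specific granules, and Mmp8 (-0.38 ± 0.13, edgeR adjusted p = 0.0353), the neutrophil collagenase. Ly6g, the surface marker of mature mouse neutrophils, was among them (-0.59 ± 0.21, edgeR adjusted p = 0.0452). The 4 higher ones were Ctsc, Serpinb1a, Olfm4 and Cebpb. Ctsc, cathepsin C, activates the azurophil proteases (0.27 ± 0.10, edgeR adjusted p = 0.0464), and Serpinb1a inhibits them (0.33 ± 0.10, edgeR adjusted p = 0.0246). These names were picked for that fit after it was seen.

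Cebpa apart, the regulators and receptors named next did not pass in the fit without covariates. Csf3r, the G-CSF receptor, was at 10.0 to 14.6 CPM in controls and 6.82 to 10.2 CPM in fusion livers (-0.44 ± 0.17, edgeR adjusted p = 0.105), and passed with the set as covariate (edgeR adjusted p = 0.0330). Cebpe, the C/EBPε factor of the late genes, was at 19.5 to 45.7 CPM in controls and 19.8 to 30.0 CPM in fusion livers (-0.22 ± 0.24, edgeR adjusted p = 0.594). Gfi1, a repressor needed for granulocyte maturation, had -0.06 ± 0.21 (edgeR adjusted p = 0.885), and Spi1, the gene of PU.1, had -0.18 ± 0.13 (edgeR adjusted p = 0.373). Itgam, the CD11b integrin of myeloid cells, was at 18.9 ± 4.72 CPM in controls and 18.9 ± 4.42 CPM in fusion livers, with a log2 fold change of 0.00 ± 0.21 (edgeR adjusted p = 0.991). Ptprc, the CD45 antigen of all leukocytes, is 1 of the 4 pan-leukocyte markers, whose median log2 fold change was -0.31. Like 16.5% of all genes, Ptprc had no overlap between genotypes. It was higher in fusion livers by a narrow margin, at 23.81 to 27.1 CPM against 17.7 to 23.75 CPM in controls (0.30 ± 0.11, edgeR adjusted p = 0.103). It was higher with the set as covariate (0.31 ± 0.10, edgeR adjusted p = 0.0374) and within the high set (0.51 ± 0.16, edgeR adjusted p = 0.0445), and had 0.16 ± 0.12 within the low set (edgeR adjusted p = 0.344).

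Markers of other blood cells were counted in the same way, where over all genes 12.8% passed by edgeR, 18.3% by DESeq2 and 29.3% at an unadjusted edgeR p under 0.05. The 13 monocyte, macrophage and Kupffer cell markers summed to 1212 to 1543 CPM in controls and 1044 to 1252 CPM in fusion livers. None of the 13 passed by edgeR, 2 had an unadjusted p under 0.05, and DESeq2 passed 2. The erythroid list and the eosinophil, basophil and mast cell list had 0 genes passing by edgeR or DESeq2 and 0 at an unadjusted edgeR p under 0.05. The megakaryocyte and B lymphoid lists had 0 passing by either tool and 2 each at that unadjusted p. The blood progenitor list had 1 of 6 lower by edgeR, 3 of 6 at an unadjusted edgeR p under 0.05 and 3 of 6 passing by DESeq2. The pan-leukocyte sum was 417 to 912 CPM in controls and 318 to 554 CPM in fusion livers, with 0 of 4 passing by edgeR or DESeq2 and 2 at an unadjusted edgeR p under 0.05.

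Over the 9 livers, the genes most like the early members in their course were Vav1, an exchange factor of blood cells (Pearson r = 0.98, Spearman rho = 1), Tm2d2, Dbndd2, Ncf1, a subunit of the phagocyte oxidase, and Itga2b, the platelet integrin (r = 0.97 each). Nearest to the late members were 2700046G09Rik (r = 0.97), Tap2, Msra, Yipf1 and Stfa2 (r from 0.95 to 0.96). Stfa2 belongs to a family of near-identical stefin genes, and its reads may be shared with its copies. These were the highest of 12541 genes compared over libraries of unequal depth and set, and carry no p.

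The tumours were compared to ask whether palbociclib changed the same genes. Of the 8 granule genes in the files, 4 reached a mean of 1 CPM and were tested, Prtn3, Lcn2, S100a8 and S100a9, and none of the 4 passed (limma on log2(CPM + 1), adjusted p under 0.05). Nor did any of 12829 genes (0%). At an unadjusted limma p under 0.05 there were 2 of the 4, S100a8 and S100a9, both lower, where 0.842% of all genes were lower and 4.57% in either direction. On recovered reads edgeR passed 0 genes and DESeq2 5, none of them granule genes. All 8 had overlapping groups, where 0.935% of all genes tested had groups without overlap.

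S100a8 was at 60.9, 35.4, 79.3, 16.5 and 19.3 CPM in vehicle 1 to 5, and 5.99, 27.7, 20.3, 13.2 and 9.70 CPM in palbociclib 1 to 5. Vehicle 1, 2 and 3 lay above all palbociclib tumours and vehicle 4 and 5 within their range. The means were 42.3 ± 27.2 and 15.4 ± 8.68 CPM (SD, n = 5 each). The difference was -1.33 ± 0.44 on the log2(CPM + 1) scale (limma, SE, unadjusted p = 0.00819, adjusted p = 0.953). S100a9 was at 73.6, 14.2, 69.2, 16.7 and 10.1 CPM in vehicle and 5.14, 23.2, 14.8, 15.5 and 6.92 CPM in palbociclib tumours. Here only vehicle 1 and 3 stood above the treated range, and the limma difference was -1.14 ± 0.52 (unadjusted p = 0.0441, adjusted p = 0.953). Leaving out 1 tumour at a time gave -1.59 to -1.04 for S100a8. For S100a9 it gave -1.46 to -0.78, the smallest without vehicle 1.

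The tumours highest in S100a8 were also high in erythroid and endothelial transcripts, which held only in part for S100a9. Vehicle 1, 2 and 3, the 3 highest in S100a8, had the 3 highest erythroid marker sums, 16942, 36766 and 96715 CPM, while the other 7 tumours had 1345 to 10572 CPM. The same 3 tumours had the 3 highest sums of 4 endothelial markers, 164, 111 and 132 CPM, against 51.7 to 84.5 CPM in the other 7. Of these 4 markers 0 had an unadjusted limma p under 0.05. The 9 tested erythroid genes had a median difference of -1.66 on the log2(CPM + 1) scale, against 0.14 for all genes. Of these 9, 4 had an unadjusted limma p under 0.05, where 4.57% of all genes did, and 0 passed the threshold by limma or DESeq2. S100a9 in vehicle 2 lay within the palbociclib range at 14.2 CPM. Vehicle 1 also had the highest pan-leukocyte sum, 405 CPM against 17.6 to 64.4 CPM, the next being palbociclib 2, and a macrophage sum of 1493 CPM against 71.8 to 185 CPM. The part of blood or vessel content in the S100 difference was not tested. Without vehicle 1 and vehicle 5 together, a choice made after seeing the data, S100a8 had -1.35 and S100a9 -1.09 (limma adjusted p = 0.490 and 0.561). S100a9 counts were 0.402 to 1.21 of the S100a8 counts in tumours, where livers had 2.26 to 6.03.

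**Figure D4:**
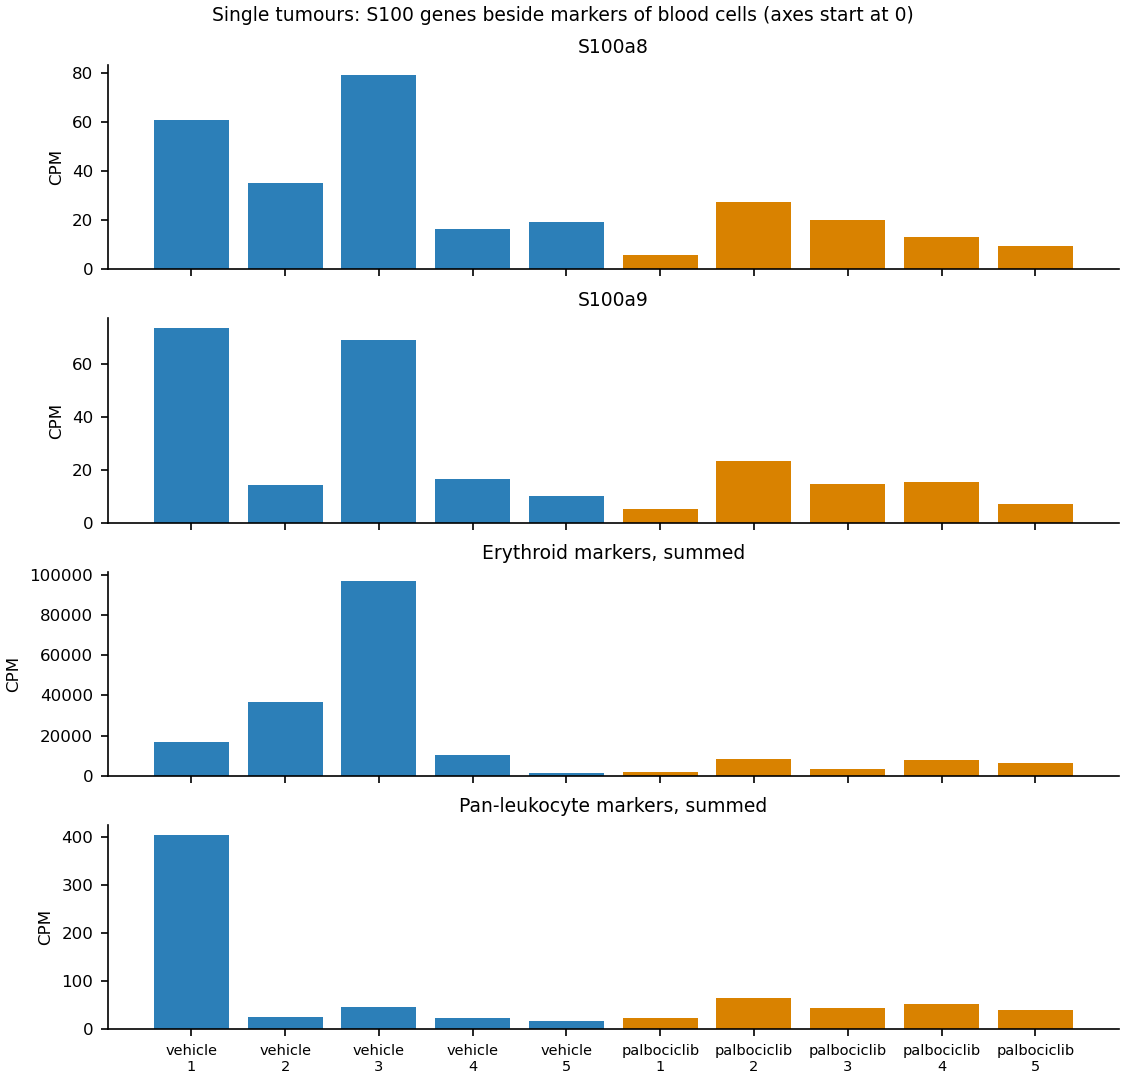
CPM of S100a8 and S100a9 and the summed CPM of 11 erythroid and 4 pan-leukocyte markers in each of the 10 tumours (blue vehicle, orange palbociclib, linear axes from 0). The tallest S100a8 and erythroid bars are both vehicle 3, and the tallest S100a9 and leukocyte bars are both vehicle 1.

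Lcn2 did not pass either. It was at 201, 454, 490.0, 913 and 638 CPM in vehicle 1 to 5 and 481, 775, 643, 657 and 746 CPM in palbociclib 1 to 5. Its lowest level, in vehicle 1, came from the tumour with the most leukocyte transcripts, and that tumour also had the lowest sum of acute phase genes, 1438 CPM against 5060 to 7551 CPM in the others. Vehicle 1 was likewise the lowest in the 8 hepatocyte genes, at 34413 CPM against 68891 to 106842 CPM, and 46.6% of its counts were mitochondrial. The cause of its low Lcn2 level was not tested. The Lcn2 means were 539 ± 261 and 660.5 ± 115 CPM (SD, n = 5 each) and the difference 0.43 ± 0.34 (limma adjusted p = 0.953), which was 0.12 without vehicle 1.

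Prtn3 was low and present in all tumours, at 5.05, 2.85, 4.54, 12.8 and 7.44 CPM in vehicle and 6.45, 4.90, 10.6, 3.69 and 8.21 CPM in palbociclib tumours. The difference was 0.11 ± 0.37 (limma adjusted p = 0.979), and its sign turned with TMM scaling (-0.03). Its neighbour Elane had 49 counts in vehicle 1 (1.45 CPM), 0 in vehicle 2 to 5, and 17, 16, 0, 5 and 0 counts in palbociclib 1 to 5. In livers Elane reached at least 0.320 of the Prtn3 count, in tumours at most 0.287. Prtn3 shares exon bases with Plppr3, and whether its tumour counts hold reads of that gene was not tested.

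The granule-restricted late genes were close to absent. Camp had counts in 2 tumours, 163 in vehicle 1 (4.81 CPM) and 59 in palbociclib 2 (1.53 CPM). Ngp had 274 counts in vehicle 1 (8.09 CPM), 28 in palbociclib 2, 14 in vehicle 4, 8 in vehicle 3 and 0 in the other 6. Ltf had 90 counts in vehicle 1 (2.66 CPM) and 0 to 24 in the others. For these 3 and for Elane vehicle 1 was the highest of the 10 tumours. In vehicle 5 a count of 0 allows 1.01 CPM or more, so its zeros say little.

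**Figure D5:**
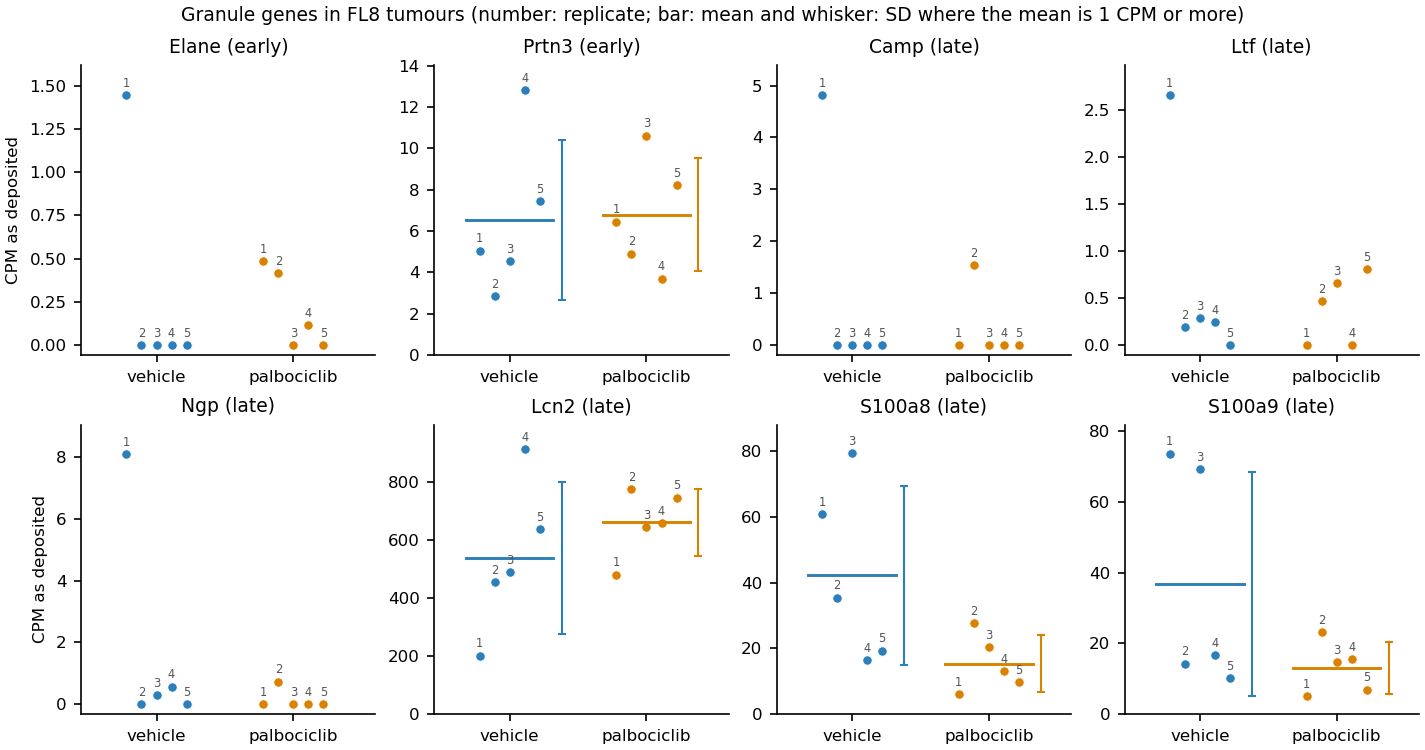
CPM of the 8 granule genes in 5 vehicle (blue) and 5 palbociclib (orange) tumours, each point numbered by replicate, with bars for means and whiskers for 1 SD in the 4 tested genes. Vehicle 1 is the top point for Elane, Camp, Ltf, Ngp and S100a9 and the bottom point for Lcn2.

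Of the 45 further granulocyte genes 41 were in the tumour files and 31 were tested, 0 of them passing by limma, edgeR or DESeq2. Where 4.57% of all genes had an unadjusted limma p under 0.05, 2 of the 31 did. Their median difference was -0.05 on the log2(CPM + 1) scale, against 0.14 for all genes, a shift that TMM scaling set to 0.00. The lowest p among those that were lower belonged to Trem1, a receptor that amplifies neutrophil and monocyte activation, at -1.08 ± 0.42, ahead of Cebpb at -0.58 ± 0.34 and Cxcr2, the chemokine receptor of neutrophils, at -0.54 ± 0.43 (limma adjusted p = 0.953 each). Among those that were higher it belonged to Wfdc21 at 0.94 ± 0.36, ahead of Pglyrp1 at 0.25 ± 0.26 and Runx1 at 0.31 ± 0.50 (limma adjusted p = 0.953, 0.953 and 0.961).

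The lineage genes separated vehicle 1 from the rest. Csf3r was at 35.1 CPM in vehicle 1 and 0 to 8.79 CPM in the other 9 tumours, Spi1 at 67.9 against 2.37 to 16.9 CPM, and Itgam at 23.8 against 1.04 to 5.37 CPM. Ptprc was at 58.5 CPM there and 2.71 to 8.46 CPM elsewhere. Cebpe went the other way, lowest in vehicle 1 at 4.75 CPM and 7.78 to 14.1 CPM in the others. Their differences between treatments were -0.12 ± 0.67 for Csf3r, 0.29 ± 0.64 for Spi1, -0.19 ± 0.53 for Itgam, -0.30 ± 0.58 for Ptprc and 0.10 ± 0.30 for Cebpe (limma adjusted p from 0.966 to 0.987). The sign of each turned when single tumours were left out, and Spi1 had -1.37 by edgeR on recovered reads. Gfi1 had 0 to 8 counts in each tumour and was not tested. Ly6g was listed at 0 in all 5 palbociclib and in 2 vehicle tumours and reached 0.485 CPM in vehicle 4. The eosinophil, basophil and mast cell list and the T and NK list had no gene among the tumour IDs.

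Over the 10 tumours, the genes nearest to the late members were Fxyd5 (Pearson r = 0.95, Spearman rho = 0.81), Skap2, Ccr1, a chemokine receptor of myeloid cells, Tpm3-rs7 and Tnfrsf13b (r from 0.93 to 0.94). Nearest to the early members, here Elane and Prtn3, were Prpsap2 (r = 0.95), Rap1b (r = 0.90), Rap2a, mt-Nd2 and mt-Nd5 (r from 0.86 to 0.87), of 12770 genes compared. Vehicle 1, with its high mitochondrial share, enters all of these.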

How the data were processed

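RNA was sequenced from 9 embryonic livers (poly-A RNA) and 10 FL8 tumours (total RNA). For the livers the authors deposited raw read counts by gene symbol, aligned to mm10 with STAR 2.5.1b, per the submitters' processing notes. It lists 13549 genes with a count sum of at least 47, and 9 columns of scaled values were not used. The tumour files hold CPM deposited by the authors for 17606 gene IDs. The submitters' processing notes name cutadapt 2.10, HISAT2, featureCounts, DESeq2, R 4.1.2 and mm10 for them. All CPM values (100%) were whole multiples of 1 read within a tolerance of 1e-06, and the recovered counts of 1 to 10 were even in 59.8% to 78.1% of cases. GENCODE M21 gave symbols for 17469 IDs.

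Livers were compared with edgeR 4.0.16 (R 4.3.3; quasi-likelihood test, TMM factors, filterByExpr, 13316 genes tested). This test gives no SE, so the SE printed with edgeR values is the absolute log2 fold change over the square root of F. Tumours were compared with limma 3.58.1 (with a trend) after log2(CPM + 1), in the 12829 genes that averaged 1 CPM or more, a scale that understates changes of low genes. P-values were adjusted by Benjamini-Hochberg over all genes tested, with a threshold of 0.05, and DESeq2 1.42.0 was an alternative. The library set (ribosomal share, divided at its largest gap) and sex were alternatives, as were each library left out, other size factors, filters, pseudocounts (0.1) and the replicate number as a block. Vehicle 1 and vehicle 5 were left out together as an alternative added after seeing the data. On simulated data of the embryo design edgeR called 196 of 200 genes changed 4-fold and 9 unchanged genes, with 13267 genes tested in all. In the tumour design limma called 171 of 200 and 12 unchanged genes, with 12801 tested in all. The changed genes were drawn only from those above a minimum mean level, which Elane, Camp, Ltf and Ngp did not reach in tumours. No library sets were simulated. The fitted changes of the granule genes were smaller than 4-fold, and the power for such changes was not tested. No 2 libraries of a group agreed within sampling noise (lowest chi-square per degree of freedom 12.5).

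The members and lists were chosen with earlier results of these data known. Named besides the members were, from 45 further granulocyte genes, up to 8 past the threshold by smallest p or, with none, the 3 of smallest p in each direction, plus Csf3r, Cebpe, Gfi1, Spi1, Itgam and Ptprc. The 5 genes most like the early and late members by Pearson correlation of log2(CPM + 1) were also named, among those averaging 1 CPM or more.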

Additional observations from a re-analysis of the deposited data

Results flagged for a closer look

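In each group of 4 or 5 libraries the highest or lowest value was marked when its gap to the next took most of the group's range (Dixon's 95% limits). Of 82 groups screened 15 were marked, where chance would give about 4.1 (1 in 20) for normal and independent values. These values are neither, since many measures share a library, so that this number is only a guide. Where every other library of a group is at 0, the mark follows from the rule.

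Vehicle 1 accounts for 9 of the marks. It stood above the other 4 vehicle tumours for Elane (1.45 CPM against 0), Camp (4.81 CPM against 0), Ltf (2.66 CPM against at most 0.284 CPM) and Ngp (8.09 CPM against at most 0.565 CPM). The lineage genes Csf3r (35.1 CPM against at most 8.79 CPM), Itgam (23.8 CPM against at most 3.38 CPM), Ptprc (58.5 CPM against at most 5.60 CPM) and Spi1 (67.9 CPM against at most 6.03 CPM) were marked in the same tumour. So was its mitochondrial share of 46.6%, where the other 4 had 1.24% to 4.12%.

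Palbociclib 2 was marked for Camp (1.53 CPM against 0) and Ngp (0.727 CPM against 0), and palbociclib 1 for Gfi1 (0.228 CPM against 0). Among the livers control 3 was the highest control for Csf3r (14.6 CPM against at most 10.8 CPM) and Spi1 (46.9 CPM against at most 37.9 CPM). Fusion 6 was the deepest library, at 45.6 M counts against 13.5 to 16.4 M in the other 3 fusion livers.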

How the results depend on the processing

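Against 1704 genes past the threshold between genotypes and 0 of the 10 granule genes, the library set as covariate gave 4345 genes and 4 granule genes. Within the high set there were 2589 genes and 4 granule genes, and within the low set 2950 genes. DESeq2 gave 1 granule gene in livers and 5 genes in tumours, where limma gave 0. Leaving out 1 library at a time gave 969 to 1581 genes in livers, with 0 to 0 granule genes, and 0 to 0 genes in tumours. The smaller sample of each such fit reduces its power.

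The following signs turned for values that did not pass in the comparison as reported. In livers S100a8 was -0.11 and Gfi1 0.27 within the low set. Itgam was 0.0028 with RLE factors, 0.0040 with DESeq2, 0.011 without a filter, 0.062 with the set and 0.11 with sex as covariate, 0.12 within the high and 0.028 within the low set. In tumours Prtn3 was -0.031 (TMM), -0.11 (edgeR), -0.12 (DESeq2) and -0.018 without mitochondrial genes. Cebpe was -0.034, -0.076, -0.091 and -0.025 in the same order, and -0.22 without vehicle 1 and 5. Csf3r was 0.44 with a pseudocount of 0.1, Spi1 -1.37 by edgeR and by DESeq2, and Runx1 -0.70 and -0.72. Without vehicle 1 and 5 Itgam was 0.55 and Ptprc 0.25. The cause was not tested.

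With single libraries left out the ranges crossed 0 for Mpo (-0.29 to 0.020), Prtn3 (-0.21 to 0.077), Gfi1 (-0.20 to 0.10) and Itgam (-0.13 to 0.11) in livers. In tumours they did for Prtn3 (-0.10 to 0.36), Csf3r (-0.72 to 0.57), Cebpe (-0.10 to 0.25), Spi1 (-0.038 to 1.05), Itgam (-0.50 to 0.40) and Ptprc (-0.60 to 0.41).

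Whether tumour replicate numbers pair the samples is not stated. The correlation of deviations of same-numbered tumours was -0.32 to 0.0022, and 0 of 5 tumours matched its own number best. Such correlations cannot exclude a shared cage or day. With the replicate block 0 genes passed. Vehicle 5, at 2.96 M counts, limits what its zeros show.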
